A study of Homo sapiens with 4 samples.

Results

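The genes described here are 35 WNT receptors, signal transducers and feedback genes out of 34500 genes measured in MCF10A cells. They were chosen by name from known roles in the pathway, with no measured value in the rule, and WNT ligands were left out. Earlier results of these data were known when the list was made. Of the 35 genes, 31 had enough counts to be tested, and ROR2, AXIN2, SP5 and DKK3 did not. The list holds 8 Frizzled receptors, 6 co-receptors and other receptors, 2 proteins that process ligands, 3 Dishevelled proteins, 4 parts of the β-catenin destruction system, 4 TCF/LEF factors and 8 feedback genes and antagonists.

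MCF10A cells are an established human line of immortal mammary epithelium that does not form tumours. RNA was sequenced from 2 libraries made 1.5 h after TGF-β1 was added at 5 ng/ml, and from 2 control libraries at 0 h. The cells of all 4 libraries stably expressed a scramble shRNA, that is, a short hairpin used as a control without an intended target. The medium of both groups also held epidermal growth factor at 20 ng/ml, cholera toxin at 100 ng/ml, insulin at 10 µg/ml, hydrocortisone at 500 ng/ml and 5% horse serum. No library of unmodified cells and no vehicle control at 1.5 h was analysed here, so treatment and time in culture cannot be told apart. The comparison of TGF-β1 with control asks which transcripts respond early to this cytokine. The libraries are labelled as biological duplicates, and the labels do not say what a replicate number stands for, so p-values measure the spread between these libraries.

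In the WNT pathway, secreted WNT proteins bind Frizzled receptors together with the co-receptor LRP5 or LRP6 and recruit Dishevelled to the membrane. Without a ligand, the scaffold AXIN, the tumour suppressor APC and the kinase GSK3B hold β-catenin, the product of CTNNB1, in a destruction complex. With a ligand, β-catenin is spared, enters the nucleus and binds TCF and LEF factors at target genes. Several of those targets, among them AXIN2, NKD1, RNF43, ZNRF3, SP5 and DKK1, feed back on the pathway, which is why their transcripts are read as signs of its activity. ROR1, ROR2 and RYK can carry WNT signals that do not need β-catenin. In mammary epithelium the pathway is known for its role in stem and basal cells.

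The 4 libraries held between 35737659 and 40792300 estimated counts. All 12 basal mammary markers examined, among them KRT5, KRT14 and TP63, had a mean of at least 10 TPM (a level corrected for transcript length and library size). Of 8 luminal markers 4 reached 1 TPM, of 7 fibroblast markers 2 did and of 8 blood and endothelial markers only CD14 did. Of these, KRT8 and KRT18 among the luminal markers, DCN among the fibroblast markers and CD14 reached 10 TPM. The treatment was visible in SMAD7, an inhibitor of TGF-β receptors, with 129 and 100.1 CPM (counts relative to the scaled library size) in TGF-β1 libraries against 8.58 and 8.27 CPM in controls. SKIL, a SMAD co-repressor, had 181 and 187 CPM in TGF-β1 libraries against 56.4 and 43.7 CPM in controls. For SMAD7 the log2 fold change was 3.76, with an adjusted p of 0.0888 by edgeR's quasi-likelihood test and 6.27e-47 by DESeq2. In both groups the replicate numbers differed widely. The histone demethylase PHF8, which the labels' protocol mentions, had 3.998 and 20.0 CPM in TGF-β1 replicates 2 and 1, and 3.88 and 20.2 CPM in control replicates 2 and 1.

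The receptors and the relay of the pathway were present in these cells, and several of its usual target transcripts were scarce. By mean TPM over the 4 libraries, 1 of the 35 genes was above 100, 13 lay between 10 and 100, 15 between 1 and 10, and 6 under 1. CTNNB1 had the highest level, with 231 and 199 TPM in TGF-β1 replicates 1 and 2 and 238 and 200.0 TPM in control replicates 1 and 2. It was followed by the secreted antagonist DKK1 at 93.6 TPM, DVL1 at 69.0, FZD6 at 68.0, RYK at 65.5 and GSK3B at 37.1 TPM. The ranges of DVL1, FZD6 and RYK overlapped, and in TGF-β1 replicate 1 DKK1 lay below FZD6 and DVL1, so the order of these 4 is not set by the libraries. The 6 genes under 1 TPM were APCDD1 at 0.772, NKD1 at 0.334, AXIN2 at 0.199, DKK3 at 0.169, SP5 at 0.0234 and ROR2 at 0.0125 TPM. Of these, AXIN2, NKD1, SP5 and APCDD1 are known as targets of β-catenin in other cells. DKK1, another such target, had the second highest mean TPM of the list.

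**Figure D1:**
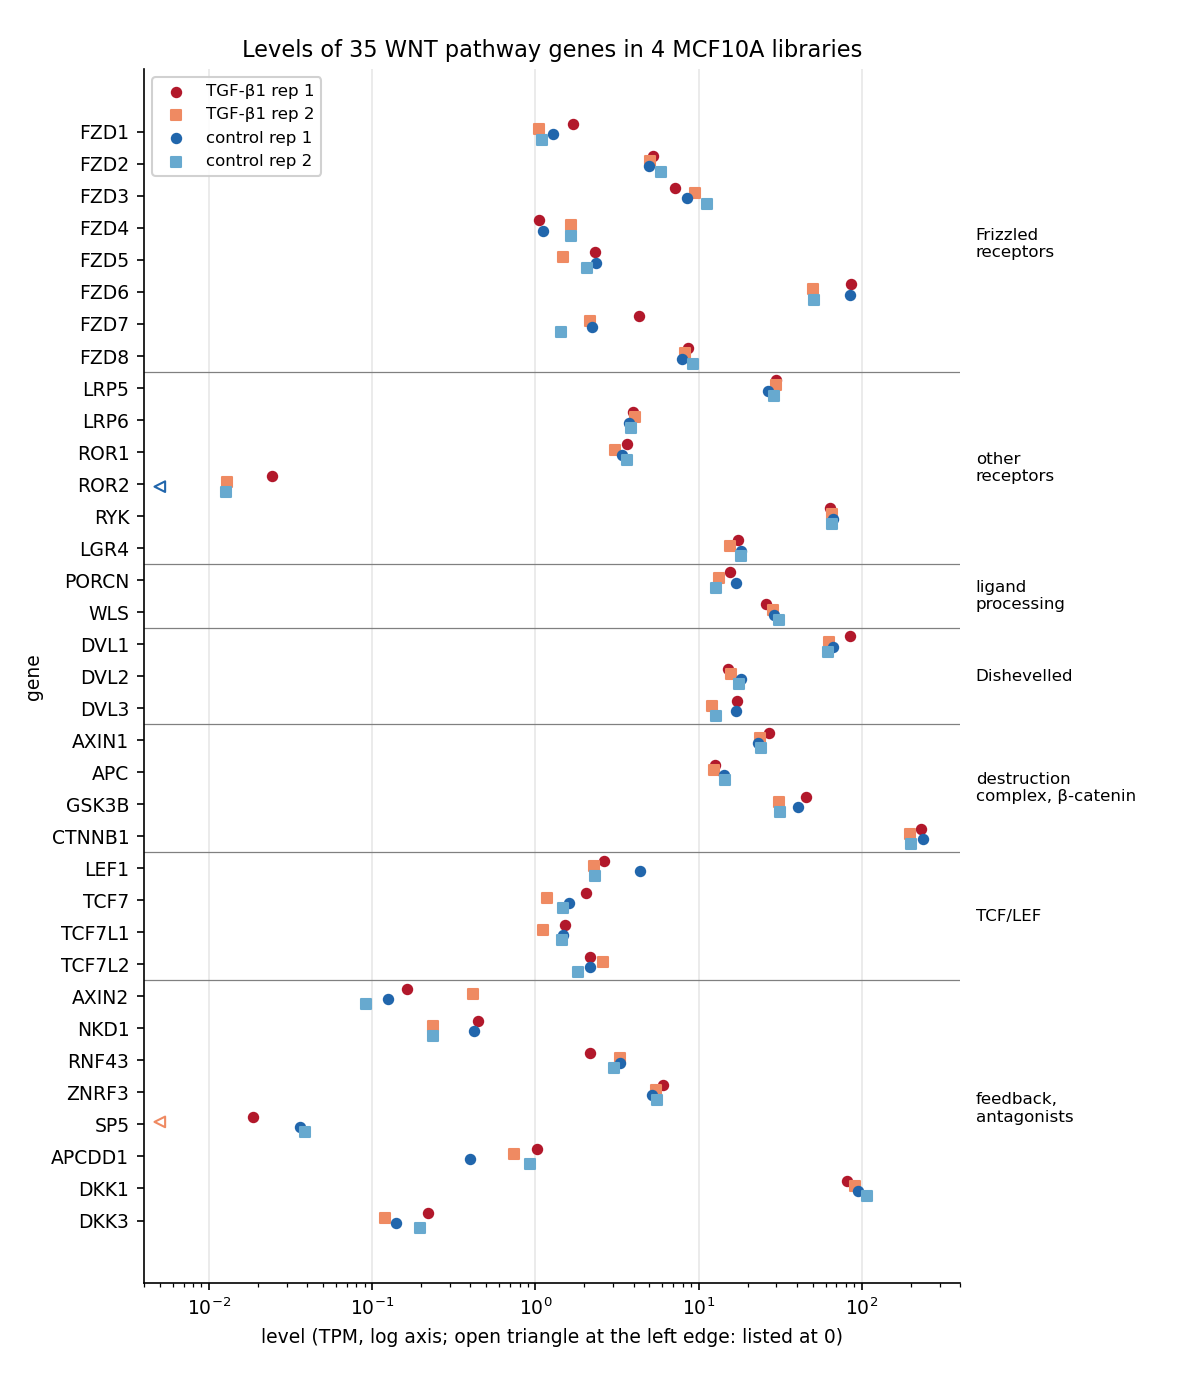
Level of each of the 35 genes in each library, as deposited TPM summed over transcripts, on a log axis, grouped by role; each point is 1 library. CTNNB1 stands highest at 199 to 238 TPM, and SP5 and ROR2 lie lowest with means of 0.0234 and 0.0125 TPM.

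Within families, 1 gene usually supplied most of the transcripts. FZD6 made up 73.9% and 63.4% of the summed Frizzled TPM in TGF-β1 replicates 1 and 2, against 74.9% and 61.0% in control replicates 1 and 2. FZD3 took 6.12% to 13.5% and FZD8 7.01% to 11.0%, with FZD8 ahead of FZD3 in TGF-β1 replicate 1 and behind it in the other libraries, and each of the other 5 receptors took at most 7.02%. LRP5 supplied 87.7% to 88.3% of the TPM of LRP5 and LRP6, and DVL1 supplied 65.5% to 72.2% of that of the Dishevelled genes. AXIN1 supplied 98.3% to 99.6% of the AXIN pair, and RYK 94.6% to 95.5% of the sum of RYK, ROR1 and ROR2. The ubiquitin ligase ZNRF3, which removes Frizzled receptors from the membrane, supplied 61.0% to 73.7% of the sum with its relative RNF43. The TCF and LEF factors were low and more even, with sums of 8.38 and 7.18 TPM in TGF-β1 replicates 1 and 2 and of 9.64 and 7.06 TPM in control replicates 1 and 2. On protein-coding transcripts alone the means were 1.83 TPM for TCF7L2, 1.17 for LEF1, 0.674 for TCF7L1 and 0.545 for TCF7. With all transcripts, no member of that family exceeded 45.6% of its sum in any library. These shares are a description of 4 libraries and carry no test.

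**Figure D2:**
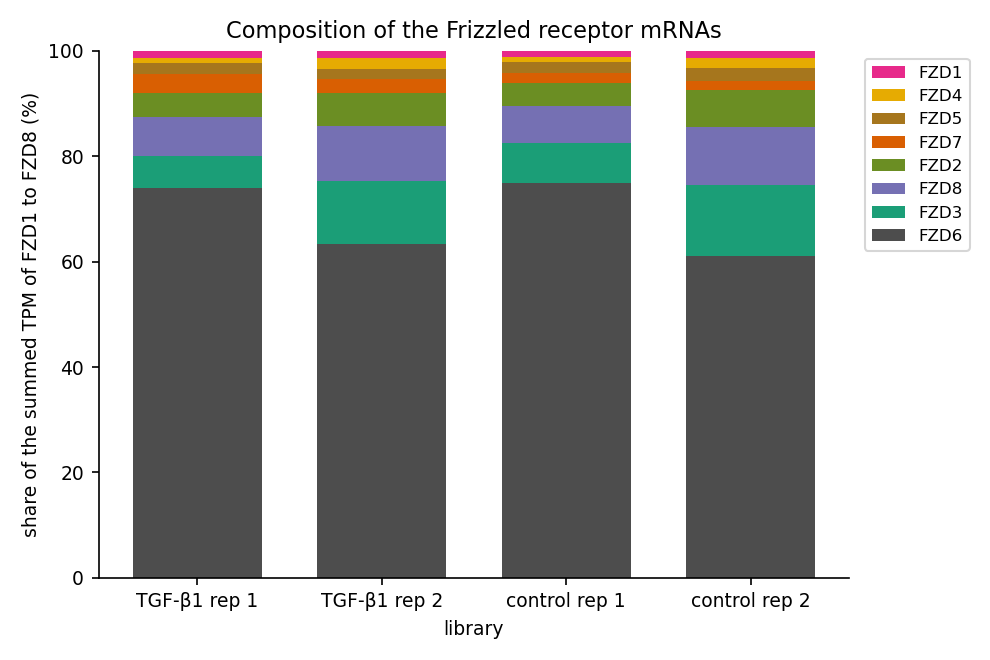
Share of the summed TPM of FZD1 to FZD8 taken by each of the 8 receptors in each library, in percent. FZD6 takes 61.0% to 74.9%, with the larger shares in both libraries numbered 1.

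No tested gene of the list passed the test for TGF-β1 at 1.5 h in the fit without covariates. With the replicate number as a block, edgeR called 2 of the 31, FZD7 and DKK1, and 2.27% of all genes, and DESeq2 called 0 of 35. The values below are those without the block. The quasi-likelihood test of edgeR called 0 of 31 (0 at an unadjusted p under 0.05), and DESeq2 called 0 of 35. Over all genes, edgeR called 0 of 14774, or 0%, with 255 (1.73%) at an unadjusted p under 0.05, and DESeq2 called 90 of 19649, or 0.458%. The median log2 fold change of TGF-β1 over control was 0.0067 in the 31 genes and -0.0054 in all tested genes. The median size of the change, without its sign, was 0.073 in the 31 genes and 0.074 in all genes. Of the 31, 18 had a positive and 13 a negative value, 30 lay within 0.4 of 0, and 0 reached a 2-fold change. The 95% interval of the log2 change lay between -1 and 1 for 26 genes, which leaves out a 2-fold change, and between -0.5 and 0.5 for 13. These intervals count the spread between replicate numbers as noise. For FZD6, for example, the SE was 0.34 without the block and 0.047 with it. For FZD3 it was 0.24 without the block and 0.054 with it. The summed level of the 7 fibroblast markers was 28.5 and 26.2 TPM in TGF-β1 libraries against 21.4 and 19.8 TPM in controls, with 5 of the 7 under 1 TPM, and their part in these values was not tested. In bulk RNA, fewer cells with a transcript and less of it per cell cannot be told apart.

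On the CPM scale the groups did not overlap in 5 of 31 genes, or 16.1%, against 16.2% of all tested genes. FZD7, AXIN1 and NKD1 were higher in both TGF-β1 libraries than in either control (7.87% of all genes), and RNF43 and LGR4 were lower (8.34% of all genes). On the TPM scale 9 genes did not overlap, and 18.9% of all tested genes did not. These were LRP5, LRP6 and TCF7L2 with higher, and RYK, LGR4, WLS, DVL2, APC and DKK1 with lower TPM after TGF-β1. LGR4 was the single tested gene that stood apart on both scales. Of the genes too low to be tested, AXIN2 and ROR2 were higher and SP5 lower on both, with 38, 4 and 5 counts over the 4 libraries. Within replicate numbers, 20 of 31 genes, or 64.5%, had the same sign in both pairs, against 54.9% of all tested genes.

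**Figure D3:**
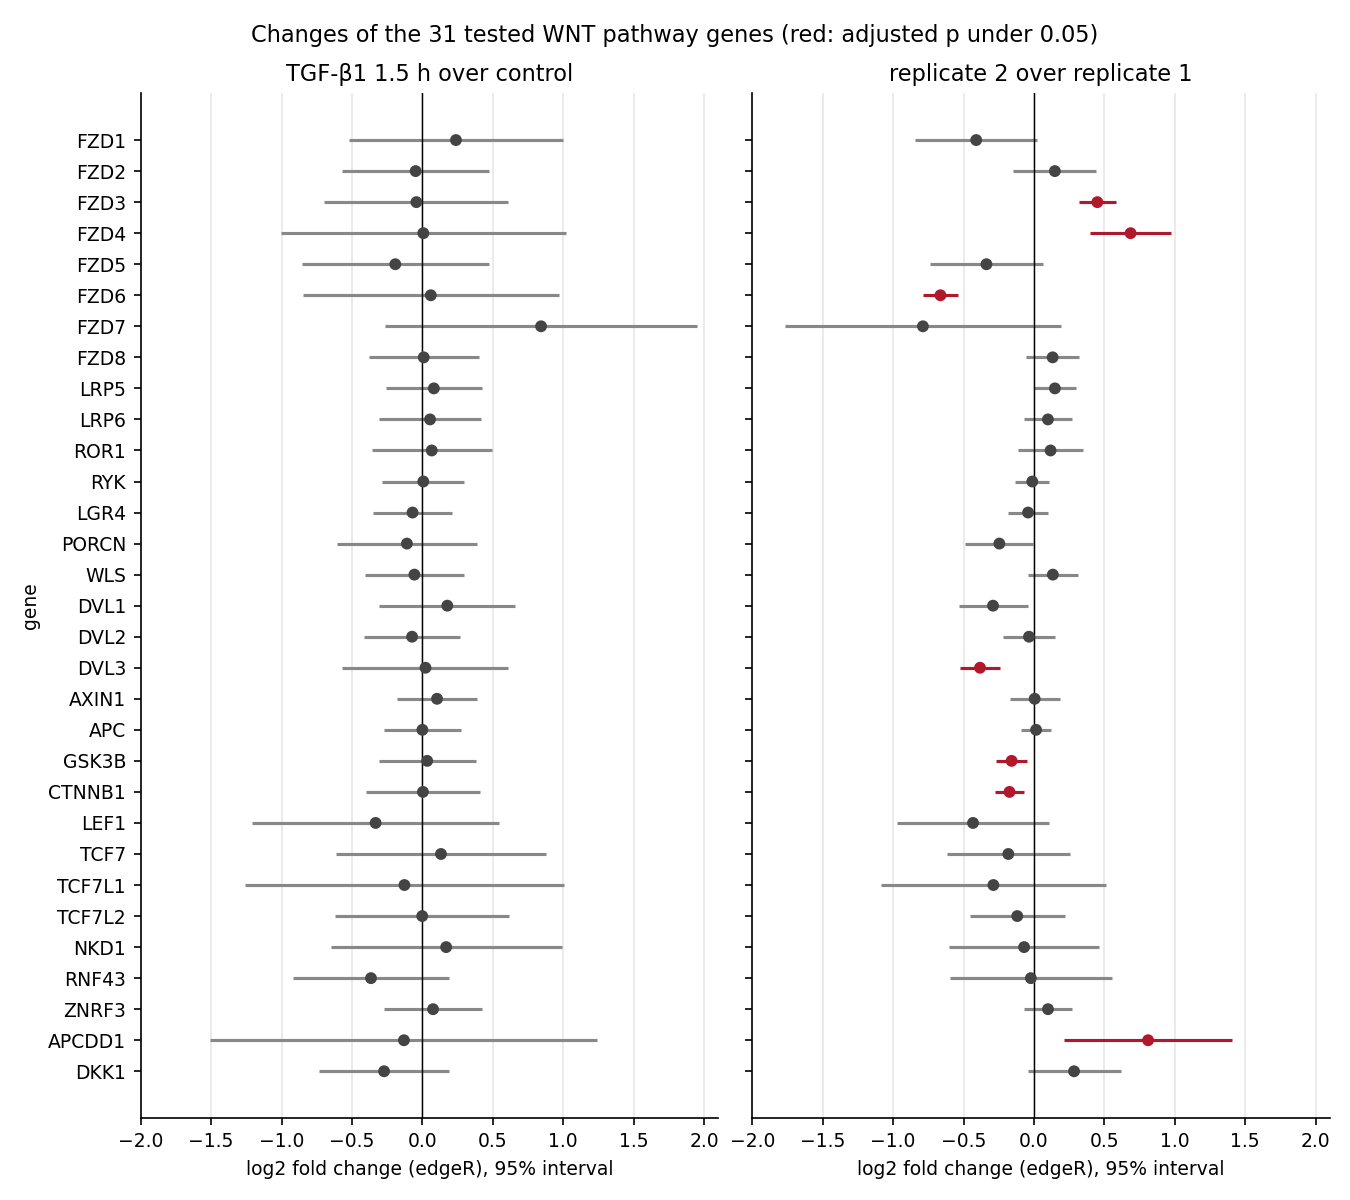
Log2 fold change of each tested gene with its 95% interval by edgeR without covariates, for TGF-β1 over control and for replicate 2 over replicate 1. The intervals for TGF-β1 cross 0 in all 31 genes, and 7 genes pass the threshold between replicate numbers.

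Among the Frizzled receptors, FZD7 had the largest log2 value of the 31 tested genes. In the GRCh38 annotation of GENCODE 29, used for all gene positions here, FZD7 lies on chromosome 2 (202034587 to 202038445, plus strand). It had 11.8 and 6.32 CPM in TGF-β1 replicates 1 and 2, against 6.07 and 4.04 CPM in control replicates 1 and 2. Both TGF-β1 libraries were above both controls, the lower of them by little, and on the TPM scale the groups overlapped. The log2 fold change was 0.84 ± 0.41 (SE), with a 95% interval of -0.26 to 1.95 and an unadjusted p of 0.104 by edgeR (adjusted p = 1.00). It was 0.96 within the libraries numbered 1 and 0.64 within those numbered 2. With the replicate number as a block, the SE was 0.14 and edgeR called FZD7 (adjusted p = 0.0319), while DESeq2 with that block did not. FZD1 had 8.62 and 5.74 CPM in TGF-β1 libraries and 6.52 and 5.65 CPM in controls. FZD5 had 11.2 and 7.71 CPM in TGF-β1 libraries and 11.4 and 10.2 CPM in controls. The groups overlapped for both receptors, with log2 fold changes of 0.24 ± 0.28 (SE) for FZD1 and -0.19 ± 0.25 for FZD5. FZD2, FZD3, FZD4, FZD6 and FZD8 had log2 values between -0.048 and 0.060, and all overlapped.

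The tested co-receptors and ligand processors had log2 values between -0.11 and 0.082. LRP5 and LRP6, which bind WNT beside Frizzled, had log2 fold changes of 0.082 and 0.055. LGR4, which binds R-spondin and so protects Frizzled from its ubiquitin ligases, had 63.5 and 59.8 CPM in TGF-β1 libraries against 64.7 and 64.7 CPM in controls. Both TGF-β1 libraries were lower, by a log2 change of -0.070 with an interval of -0.35 to 0.21. RYK, a receptor with an inactive kinase, had 117 and 121 CPM in TGF-β1 libraries and 121 and 115 CPM in controls, which overlapped, and its log2 change was 0.0067. ROR1, a receptor for WNT5A, had a value of 0.067. PORCN, which adds the lipid that WNT needs for secretion, was at -0.11, and WLS, which carries WNT to the cell surface, at -0.057.

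Of the Dishevelled relay proteins, DVL1 had 157 and 120.3 CPM in TGF-β1 replicates 1 and 2 and 131 and 115 CPM in control replicates 1 and 2. The groups overlapped, and the log2 fold change was 0.18 ± 0.18, with an interval of -0.31 to 0.66. DVL2 and DVL3 had values of -0.073 and 0.022. In the destruction complex AXIN1 had 63.7 and 61.2 CPM in TGF-β1 libraries against 56.7 and 59.6 CPM in controls. The groups did not overlap on this scale, and the log2 fold change was 0.10 ± 0.10 (unadjusted p = 0.374 and adjusted p = 1.00 by edgeR). APC had 57.5 and 58.4 CPM in TGF-β1 libraries and 57.8 and 58.1 CPM in controls, with an interval of the log2 change from -0.27 to 0.27. GSK3B had 98.1 and 86.4 CPM in TGF-β1 libraries and 94.3 and 85.9 CPM in controls, which overlapped, and its log2 value was 0.034.

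CTNNB1, on chromosome 3 (41194741 to 41260096, plus strand), encodes β-catenin. It had 524 and 474 CPM in TGF-β1 replicates 1 and 2, and 533 and 463 CPM in control replicates 1 and 2. The groups overlapped, and the libraries with the same number lay close together in both pairs. The log2 fold change was 0.0039, with an interval of -0.40 to 0.41. β-catenin is known to be controlled mainly as a protein, and these counts describe its mRNA alone. Its RefSeq promoter window is shown because CTNNB1 is the most abundant gene of the list. The window runs from 250 bases before to 50 after an annotated start (GRCh38.p14, plus strand, chr3:41199255-41199554), and capitals mark CAGAC, a SMAD-binding motif, read on either strand.
CTNNB1: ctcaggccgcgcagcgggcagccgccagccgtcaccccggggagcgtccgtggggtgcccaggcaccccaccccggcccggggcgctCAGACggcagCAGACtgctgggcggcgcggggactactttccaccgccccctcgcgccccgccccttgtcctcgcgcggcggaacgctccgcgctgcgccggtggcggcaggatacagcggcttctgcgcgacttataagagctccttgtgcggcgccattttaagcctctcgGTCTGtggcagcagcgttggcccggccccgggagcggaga
It held 3 matches to CAGAC and none to the TCF/LEF motif CTTTGAT or to the AP-1 motif TGANTCA.

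The TCF and LEF factors, which carry β-catenin at DNA, were at low counts. LEF1 had 2.99 and 2.32 CPM in TGF-β1 libraries and 3.90 and 2.78 CPM in controls. The groups overlapped, although each TGF-β1 library was below the control with its number, and the log2 fold change was -0.33 ± 0.33. TCF7, TCF7L1 and TCF7L2 had values of 0.13, -0.13 and -0.0012. The interval of TCF7L1, which rested on 88 counts over the 4 libraries, ran from -1.26 to 1.00.

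Among feedback genes and antagonists, DKK1 and RNF43 had the lowest p-values. DKK1 binds LRP5 and LRP6 and blocks them, and lies on chromosome 10 (52314296 to 52318042, plus strand). It had 59.4 and 73.4 CPM in TGF-β1 replicates 1 and 2, against 72.7 and 87.6 CPM in control replicates 1 and 2. Each TGF-β1 library was lower than the control with its number, while the groups overlapped on the CPM scale. On the TPM scale both TGF-β1 libraries, at 80.7 and 90.8, were below both controls, at 95.4 and 107. The log2 fold change was -0.27 ± 0.17, with an interval of -0.73 to 0.19 (unadjusted p = 0.182 and adjusted p = 1.00 by edgeR). It was -0.29 within the libraries numbered 1 and -0.26 within those numbered 2. With the replicate number as a block, the SE was 0.048 and edgeR called DKK1 (adjusted p = 0.0381), while DESeq2 with that block did not.

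RNF43, a ubiquitin ligase that removes Frizzled receptors, lies on chromosome 17 (58352500 to 58417595, minus strand). It had 8.10 and 9.94 CPM in TGF-β1 libraries against 12.7 and 10.5 CPM in controls. Both TGF-β1 libraries were below both controls on this scale, and the groups overlapped in TPM. The log2 fold change was -0.36 ± 0.20, with an interval of -0.92 to 0.19 and an unadjusted p of 0.144 by edgeR (adjusted p = 1.00). It was -0.64 within the libraries numbered 1 and -0.084 within those numbered 2, so most of the difference lay in 1 pair. ZNRF3, NKD1, which binds Dishevelled, and APCDD1, a membrane inhibitor, had log2 values of 0.076, 0.17 and -0.13.

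AXIN2, the feedback scaffold most used as a reporter of β-catenin activity, was too low to be tested. It had 8 and 19 counts in TGF-β1 replicates 1 and 2, against 4 and 7 counts in control replicates 1 and 2. Both TGF-β1 libraries had more counts than either control. Over both pairs the ratio of TGF-β1 to control, adjusted for library size, was 2.55, with an exact interval of 1.22 to 5.69 that covers counting error only. Within replicate numbers the ratios were 2.03 (0.544 to 9.22) for number 1 and 2.88 (1.16 to 8.11) for number 2. DESeq2, which kept the gene, gave a log2 fold change of 1.38 ± 1.23 (SE), an unadjusted p of 0.260 and an adjusted p of 1.00. SP5, DKK3 and ROR2 had 5, 15 and 4 counts over all libraries, and no change could be detected at that depth. A library with a count of 0 allows up to 3 counts, or between 0.0755 and 0.0869 CPM.

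**Figure D4:**
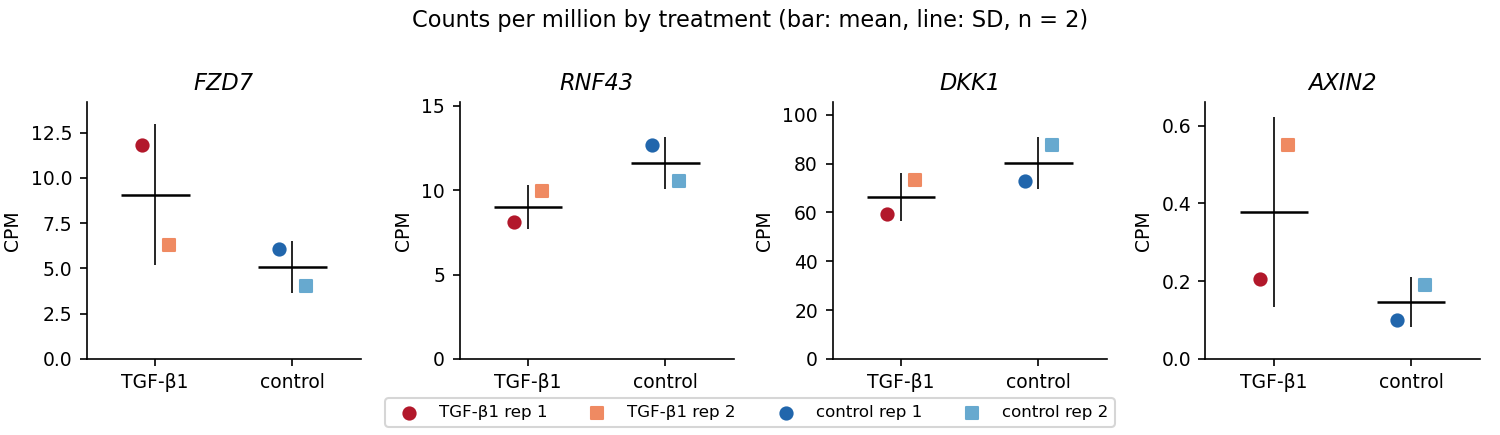
CPM of FZD7, RNF43, DKK1 and AXIN2 in each library, TGF-β1 left of control, with the mean and SD of each group (n = 2) and points marked by replicate number. The groups do not overlap for FZD7, RNF43 and AXIN2, and those of DKK1 do.

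Promoter sequences were looked up in RefSeq to show what lies upstream of these feedback genes. The table held 33 windows of 300 bases for 26 of the 35 genes, and it held none for NKD1, AXIN2, ZNRF3, FZD2, DKK3, LRP6, FZD3, FZD6 and FZD7. The windows printed are those of DKK1 (GRCh38.p14, chr10:52314031-52314330, plus strand), RNF43 (chr17:58417485-58417784 and chr17:58402672-58402971, minus strand) and SP5 (chr2:170715087-170715386, plus strand). DKK1 and RNF43 are shown as the feedback genes with the smallest p. SP5 is a zinc-finger factor induced by β-catenin, and its window alone held CTTTGAT. Capitals mark matches to any of these motifs, each searched on both strands.
DKK1: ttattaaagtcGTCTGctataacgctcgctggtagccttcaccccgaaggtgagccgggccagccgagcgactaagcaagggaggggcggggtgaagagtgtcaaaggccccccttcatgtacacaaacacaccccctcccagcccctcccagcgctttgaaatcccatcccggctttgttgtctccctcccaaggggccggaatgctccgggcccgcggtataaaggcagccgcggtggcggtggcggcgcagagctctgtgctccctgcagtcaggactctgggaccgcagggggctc
RNF43, first start: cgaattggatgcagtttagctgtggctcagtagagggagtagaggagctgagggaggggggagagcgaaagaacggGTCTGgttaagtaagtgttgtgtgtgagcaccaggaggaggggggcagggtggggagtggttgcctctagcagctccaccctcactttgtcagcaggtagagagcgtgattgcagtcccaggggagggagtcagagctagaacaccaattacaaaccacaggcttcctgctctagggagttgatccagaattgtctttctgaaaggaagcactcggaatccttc
RNF43, second start: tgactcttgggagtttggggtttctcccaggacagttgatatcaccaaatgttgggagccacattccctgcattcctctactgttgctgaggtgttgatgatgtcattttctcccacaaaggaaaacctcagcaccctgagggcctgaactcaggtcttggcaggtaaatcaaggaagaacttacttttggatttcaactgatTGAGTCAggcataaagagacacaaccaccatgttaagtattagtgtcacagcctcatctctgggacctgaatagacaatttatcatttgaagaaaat
SP5: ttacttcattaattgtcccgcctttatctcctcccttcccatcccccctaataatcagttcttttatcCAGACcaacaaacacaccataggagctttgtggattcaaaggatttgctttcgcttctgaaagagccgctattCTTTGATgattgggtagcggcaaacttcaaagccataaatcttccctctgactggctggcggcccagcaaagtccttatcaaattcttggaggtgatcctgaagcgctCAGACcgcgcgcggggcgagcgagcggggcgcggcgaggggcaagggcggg
CAGAC was found in 17 of the 33 windows, or 51.5%, against 45.2% of all 35097 windows of this length. CTTTGAT was found in 1 window, or 3.03%, against 2.62% of all, and TGANTCA also in 1, or 3.03%, against 7.71% of all. The median GC content was 67% in the 33 windows and 58.7% in all. A match is a run of letters and does not show that a factor binds there.

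Between replicate numbers 7 genes of the list were called by edgeR, namely FZD6, FZD3, FZD4, DVL3, CTNNB1, GSK3B and APCDD1. Each side of this test was 1 TGF-β1 and 1 control library with the same number. If a number marks 1 culture, the p-values measure the spread within a culture and not that between cultures. The edgeR test called 7 of 31 genes, or 22.6%, between replicates 2 and replicates 1, with 3 higher and 4 lower in replicates 2. It called 5524 of 14774 genes in all, or 37.4% (16.4% higher and 21% lower). DESeq2 also called 7 of the 31 and called 34.1% of all genes with an adjusted p. At an unadjusted p under 0.05 there were 9 of the 31 and 48.4% of all genes. On the CPM scale the replicates did not overlap in 24 of the 31, or 77.4%, against 72.5% of all genes. Of the 24, 12 were higher and 12 lower in replicates 2, against 35.9% and 36.6% of all genes. On the TPM scale 15 of the 31 did not overlap, against 65.6% of all genes. The median size of the log2 change was 0.159 in the 31 genes and 0.268 in all genes. The sign was the same within TGF-β1 libraries and within controls for 26 of 31, or 83.9%, against 82.2% of all tested genes. The labels give no difference between the replicate numbers other than the number, so what sets them apart was not tested. PHF8, with the values given above, was lower in both libraries numbered 2, and its part in these differences was not tested. The summed basal markers, all 12 of them above 10 TPM, were at 8169 and 7341 TPM in TGF-β1 and control replicates 2, against 12086 and 11290 TPM in replicates 1. The luminal sum was lower too, at 514 and 502 TPM in TGF-β1 and control replicates 2, against 667 and 699.6 TPM in replicates 1. In the same order, the fibroblast sum was lower, at 26.2 and 19.8 TPM against 28.5 and 21.4 TPM. The blood and endothelial sum was higher, at 36.02 and 37.01 TPM against 23.15 and 26.58 TPM. The part of these markers in the differences was not tested.

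FZD6, a Frizzled receptor known in mice for planar polarity, on chromosome 8 (103298433 to 103332866, plus strand), fell in replicates 2. It had 136 CPM with TGF-β1 and 128 CPM in control in the replicates numbered 2, against 213 and 206 CPM in those numbered 1. The pairs lay far apart, and within a number treated and control libraries differed little. The log2 fold change of replicate 2 over replicate 1 was -0.66 ± 0.048 (SE; adjusted p = 0.0015 by edgeR). FZD3, a related receptor on the same chromosome that guides axons in mice (28494205 to 28574268, plus strand), rose to 41.8 and 42.4 CPM in TGF-β1 and control replicates 2, against 30.1 and 31.6 CPM in replicates 1. Its log2 fold change was 0.45 ± 0.052 (adjusted p = 0.0037 by edgeR). FZD4, the receptor of Norrin on chromosome 11 (86945679 to 86955391, minus strand), rose to 9.56 and 9.09 CPM in replicates 2, against 5.60 and 5.99 CPM in replicates 1. Its log2 fold change was 0.69 ± 0.11 (adjusted p = 0.0095 by edgeR). The summed TPM of the 8 Frizzled genes was 79.5 and 83.5 in TGF-β1 and control replicates 2, against 117 and 113 in replicates 1, and FZD6 held 61.0% to 74.9% of it.

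Among the transducers DVL3, on chromosome 3 (184155311 to 184173614, plus strand), fell to 24.9 and 25.6 CPM in TGF-β1 and control replicates 2, against 33.8 and 32.2 CPM in replicates 1. Its log2 fold change was -0.38 ± 0.056 (adjusted p = 0.0071 by edgeR). DVL1 had 120.3 and 115 CPM in replicates 2 against 157 and 131 CPM in replicates 1. These did not overlap, with a log2 fold change of -0.29 ± 0.096 that edgeR did not call (adjusted p = 0.0679) and DESeq2 did (adjusted p = 0.0144). CTNNB1 fell slightly, to 474 and 463 CPM in replicates 2 against 524 and 533 CPM in replicates 1. That log2 fold change was -0.17 ± 0.041 (adjusted p = 0.0270 by edgeR). GSK3B fell to 86.4 and 85.9 CPM in replicates 2, against 98.1 and 94.3 CPM in replicates 1, by a log2 change of -0.16 ± 0.043 (adjusted p = 0.0417 by edgeR).

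APCDD1 was the called gene with the lowest level. It rose to 1.25 and 1.34 CPM in TGF-β1 and control replicates 2, against 0.690 and 0.780 CPM in replicates 1, a log2 fold change of 0.81 ± 0.23 (adjusted p = 0.0477 by edgeR). It rested on 150 counts over the 4 libraries, its replicates overlapped in TPM, and DESeq2 did not call it (adjusted p = 0.237). By edgeR, FZD6 and FZD3 were called whichever library was left out, and by DESeq2 only FZD6 was. The calls of GSK3B, CTNNB1 and APCDD1 ended in each of these edgeR fits, and those of FZD4 and DVL3 ended without TGF-β1 replicate 2. On log2(TPM + 1), limma did not call FZD3 (adjusted p = 0.120), FZD4 (adjusted p = 0.0631) or APCDD1. With the treatment as a term, edgeR called 9 of the 31, against 44.9% of all genes: it added FZD7 (adjusted p = 0.0044), DVL1 (0.0089) and DKK1 (0.0032) and left out APCDD1 (0.0599). Without that term the other 24 tested genes did not pass. Their log2 values ran from -0.79 for FZD7 to 0.28 for DKK1, and all 4 TCF and LEF factors had negative values, of -0.43 to -0.12. The sign of TCF7L2 changed with transcript lengths as an offset and in both limma fits on TPM.

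**Figure D5:**
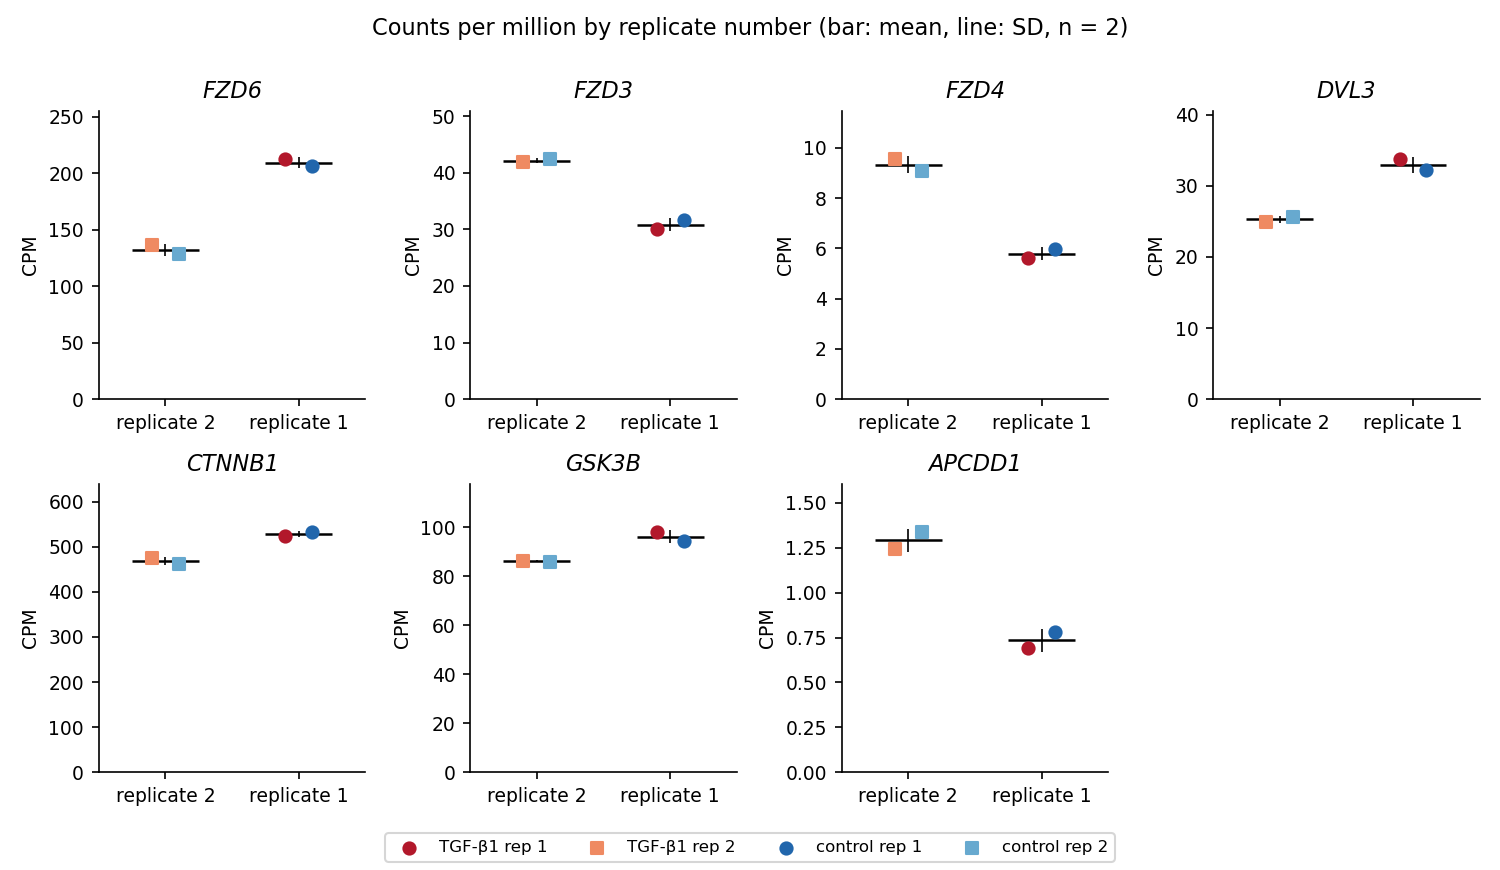
CPM in each library of the 7 genes called between replicate numbers, replicates 2 left of replicates 1, with the mean and SD of each number (n = 2). FZD6, DVL3, CTNNB1 and GSK3B lie lower in both libraries numbered 2, and FZD3, FZD4 and APCDD1 lie higher.

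The rest of the pathway was read from 106 further genes, of which 81 were tested. After TGF-β1 edgeR without covariates called 0 of them (2 at an unadjusted p under 0.05) and DESeq2 called 0. With the replicate number as a block, edgeR called 5, against 2.27% of all genes, and DESeq2 called 4, all of them higher. The groups did not overlap in 15, or 18.5%, against 16.2% of all tested genes. TLE3, a co-repressor that binds TCF factors, had 34.5 and 37.6 CPM in TGF-β1 libraries against 22.7 and 23.5 CPM in controls. The groups were well apart, with a log2 fold change of 0.64 ± 0.12 and an unadjusted p of 0.00525 by edgeR (adjusted p = 0.998, and 0.426 by DESeq2). BCL9L, a co-activator of β-catenin, had 37.3 and 41.5 CPM in TGF-β1 libraries against 30.9 and 29.5 CPM in controls, which did not overlap. Its log2 fold change was 0.38 ± 0.12 (unadjusted p = 0.0321 and adjusted p = 1.00 by edgeR). The Notch ligand JAG1, a known WNT target, had 197 and 127 CPM in TGF-β1 libraries against 111 and 79.7 CPM in controls, which also did not overlap. Its log2 fold change was 0.77 ± 0.29 (unadjusted p = 0.0534 and adjusted p = 1.00 by edgeR).

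Between replicate numbers edgeR called 20 of the 81 further genes, or 24.7%, with 9 higher and 11 lower in replicates 2, against 37.4% of all genes. DESeq2 called 25 of them, and 34.1% of all genes with an adjusted p. The 5 lower genes with the smallest p included the planar polarity genes VANGL1 and CELSR1. VANGL1 fell to 40.6 and 37.5 CPM in TGF-β1 and control replicates 2, against 72.3 and 74.3 CPM in replicates 1 (log2 fold change -0.91). CELSR1 fell to 81.2 and 81.6 CPM in replicates 2, against 108 and 109 CPM in replicates 1 (-0.41). The secreted WNT inhibitor SFRP1 fell to 295 and 218 CPM in replicates 2, against 539.5 and 549.8 CPM in replicates 1 (-1.09). The DKK1 receptor KREMEN1 (-0.40) and the transcriptional cofactor TBL1XR1 (-0.28) fell as well. The 5 higher genes were CCDC88C, which binds Dishevelled (0.68), CELSR3, another polarity cadherin (0.98), TNKS, a polymerase that marks AXIN for removal (0.42), TMEM67, a membrane protein of cilia (0.72), and HBP1, a repressor of WNT targets (0.44). Each of these 10 had an adjusted p between 0.00113 and 0.00615 by edgeR.

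The gene sums hide differences between transcripts. Protein-coding transcripts supplied at least 90% of the TPM of 18 of the 35 genes, and under 50% in 5, namely DVL3 (45.6%), LEF1 (40.4%), TCF7 (34.5%), TCF7L1 (48.5%) and DKK3 (20.0%). DVL3-207, a retained-intron transcript, was the first of DVL3 with 32.4% to 40.3% of its TPM. For DKK1 the coding transcript DKK1-201 supplied 50.3% to 56.5%, and the rest came from 3 transcripts annotated as processed. On coding transcripts alone the mean of DKK1 was 49.9 TPM, below RYK at 60.2, DVL1 at 60.0 and FZD6 at 55.2 TPM. In APC the transcript with the highest mean TPM was APC-205, annotated for nonsense-mediated decay, with 18.5% to 27.6% of the TPM. It was the first in both controls, and APC-207 in TGF-β1 replicate 1 and APC-201 in TGF-β1 replicate 2 exceeded it. CTNNB1 was 99.2% coding, spread over several transcripts that share most of their sequence, with CTNNB1-203 at 31.1% to 35.05%. The library kit removed ribosomal RNA from total RNA per the labels' protocols, while another label names polyA RNA. With coding transcripts alone, 11 of the 35 genes in place of 14 had a mean of at least 10 TPM.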

How the data were processed

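RNA of 2 TGF-β1 and 2 control libraries of MCF10A cells was read as 50-base paired ends, per the labels' protocols. Per the submitters' processing notes, the authors used kallisto and the genome build GRCh38. The version of kallisto is not given in the sources used here. Per the file headers, each deposited table lists estimated counts, TPM and effective length by transcript. Of 173259 transcripts, 159239 (91.91%) matched GENCODE release 29 and were summed to 34500 genes. Unmatched transcripts held 2.24% to 2.38% of the counts and were left out. Reads of genes alike in sequence are shared out by the estimation.

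Summed estimated counts were rounded and compared with edgeR 4.0.16 (R 4.3.3; TMM scaling, filterByExpr, quasi-likelihood test without covariates) over 14774 genes, with Benjamini-Hochberg adjustment and a threshold of 0.05. TGF-β1 was set against control, and replicate 2 against replicate 1. CPM values use the same scaling, and ratios within a replicate number use a prior count of 1. The SE is the log2 fold change divided by the root of the F statistic, an approximation. "Rose" and "fell" are used of genes called by edgeR.

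DESeq2 1.42.0 and limma 3.58.1 on log2(TPM + 1) and log2(TPM + 0.1) were among the alternatives, as were other scalings and filters. The fits were checked on simulated counts for the median size of the estimated log2 change only. No difference in the other label was simulated and no rule was set for the calls, so the check does not bear on them. The 35 genes and all gene lists were chosen with earlier results of these data known. Full values are given for called genes, for the 8 tested genes with the smallest p in each comparison and for the 6 with the highest mean TPM. Of the 106 further pathway genes, at most 5 called genes per direction are named, or the 3 with the smallest p where none was called. Promoter sequences are those of RefSeq on GRCh38.p14. Protein sequences were not analysed here, and some values of marker and check genes are not reported here.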

Additional observations from a re-analysis of the deposited data

How the results depend on the processing

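For TGF-β1 over control, 0 of the 31 genes of the list passed under every alternative except the edgeR fit with the replicate number as a block. With the replicate block, edgeR called 2, FZD7 higher (log2 fold change 0.81, adjusted p = 0.0319) and DKK1 lower (-0.27, adjusted p = 0.0381), and DESeq2 with that block called 0. The pairing rests on the number alone, and deviations from the group means correlated at 0.632 over 14774 genes between libraries with the same number. With the block edgeR called 5 further pathway genes and 335 genes in all (2.27%), and DESeq2 called 4 and 245. Without the block, the count over all genes was 15 with no filter, 3 with transcript lengths as an offset and 90 by DESeq2. Leaving out 1 library gave 0 to 20 genes by edgeR and, by DESeq2, 46 and 71 without TGF-β1 replicate 1 or 2, and 67 and 62 without control replicate 1 or 2. Between replicate numbers, limma on log2(TPM + 1) and log2(TPM + 0.1) called 3584 and 3611 genes and 4 genes of the list each time. With the treatment as a term, edgeR called 35 further pathway genes, and DESeq2 called 3513 genes in all and 7 of the list. In that DESeq2 fit FZD4 (adjusted p = 0.0545) and GSK3B (0.217) lost their calls, and FZD7 (0.0345) and DKK1 (0.0409) gained one. Leaving out 1 library gave 2 to 6 genes of the list, 14 to 19 further pathway genes and 3018 to 4020 genes in all by edgeR, and 1 to 5 and 12 to 16 by DESeq2, with 2431, 2440, 2549 and 2325 genes in all in the same order of libraries. A fit without 1 library also shifts the balance of the other label. The cause of these differences was not tested. APCDD1 lost its call with no filter (adjusted p = 0.0663), by DESeq2 and with the length offset, where CTNNB1 lost its own (0.0693). GSK3B lost its call when at least 50 counts in 2 libraries were asked for (0.0601). No called gene changed sign. The tests rest on 4 libraries, and genes under 1 TPM rest on few counts. DESeq2 with a block or treatment term, DESeq2 without each library and the other scaling of ratios within numbers were chosen after seeing the data. Protein motifs, planned at first, were not run.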
